A study of Mus musculus with 24 samples.

Results

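The genes described here are 46 genes of fatty acid oxidation and the peroxisome, followed through 2 kinds of mouse liver tumour and 2 kinds of tumour-free liver. They were chosen by gene symbol: enzymes of the mitochondrial and of the peroxisomal β-oxidation spiral, the carnitine shuttle, acyl-CoA synthetases and thioesterases, electron transfer proteins, peroxisomal membrane proteins, and a few regulated targets of the nuclear receptor PPARα. Of these, 45 were represented among the 14086 genes tested, and Acsl1 was not analysed here. Each gene stands for its brightest probe set, the one with the highest mean intensity over the 24 arrays.

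Fatty acids are activated to acyl-CoA and broken down 1 acetyl-CoA at a time. Long chains enter mitochondria through the carnitine shuttle, whereas very long chains, branched chains and bile acid precursors are first shortened in peroxisomes. In hepatocytes the acetyl-CoA feeds ketone body production, and PPARα, partnered with RXR, drives many of these genes during fasting.

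All samples were liver tissue of B6C3F1 mice, a hybrid strain widely used in long-term toxicity tests. They came from a National Toxicology Program study in which male and female mice received Ginkgo biloba extract at 0, 200, 600 or 2000 mg/kg in corn oil by gavage over 2 years, on 5 days of each week. The 4 groups of 6 arrays were hepatoblastoma (HB), hepatocellular carcinoma (HCC), non-tumour liver whose titles carry the same prefix BDCA as the tumours (BDCA_nontumor, below non-tumour liver), and normal liver of mice given the vehicle alone (vehicle_normal, below vehicle liver). The series title places the carcinomas next to the hepatoblastomas. The labels do not give the dose, sex, animal or tumour of a sample and do not spell out BDCA, so exposure cannot be told apart from the groups. The intensity of Xist, a transcript found in female cells, was over 1000 on 4 of 6 vehicle arrays, 1 of 6 non-tumour arrays and 0 of 12 tumour arrays. Values without those 5 arrays are therefore given where they change a result. Of vehicle liver only replicates 3 and 6 then remain, so that setting has fewer arrays to detect a difference. The labels also do not state that each sample is a different animal, so the p-values cover the spread among these arrays, which may be technical. HCC replicates 3 and 4 were near duplicates and entered every fit as 1 sample, which leaves n = 5 for HCC and n = 6 for the other groups.

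Values are MAS5 intensities on a linear scale, where each array had been scaled to a trimmed mean of 500. Differences are on the log2(intensity + 16) scale, which understates the change of dim genes, and each is given with its moderated standard error and an adjusted p from limma, adjusted over all genes tested. A gene is called higher or lower at an adjusted p under 0.05. Over all genes the median HB value lay 0.34 above vehicle liver on the log2 scale, and the array median intensity was 165 ± 20.8 (SD, n = 6) in HB against 92.5 ± 12.7 (SD, n = 6) in vehicle liver. Hepatocyte markers were low in HB: all 8 measured of 10 listed were lower, and their summed intensity ran from 551 to 70068 in HB, 123422 to 224227 in HCC and 187715 to 285442 in vehicle liver. None of the marker values of any cell type was at 0. The 2 highest HB sums, 70068 and 49177, belong to replicates 4 and 5, against 551 to 3179 in the other 4 HB arrays. In tissue RNA, fewer cells of a type and less RNA per cell cannot be told apart, and the part of cell makeup in the results below was not tested.

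Nearly all of the measured genes were lower in HB. Against vehicle liver, 40 of 45 genes were lower in HB and 0 were higher, at a background of 23.1% lower and 37.4% higher over all genes tested. The median difference over the 45 genes was -2.35, against the 0.34 of all genes, and it ran from -7.22 for Acaa1b to -0.01 for Acot2. In 38 of the 40 the arrays of the 2 groups did not overlap, at a background of 16.2% of genes lower without overlap. With all arrays, the mean of HB was the lowest of the 4 groups in all 45 genes. Without the arrays with Xist signal, the difference of HB from vehicle liver was below 0 in 42 of 45 genes, with a median of -2.19. HB was thus not the lowest group for every gene in that setting. In HCC against vehicle liver, 1 gene was higher and 1 lower, at a background of 4.44% higher and 2.88% lower, so that the count in HCC was near the background. The 5 genes without a call in HB against vehicle liver were Crat, Pdk4, Acot1, Acot2 and Acot8.

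**Figure D1:**
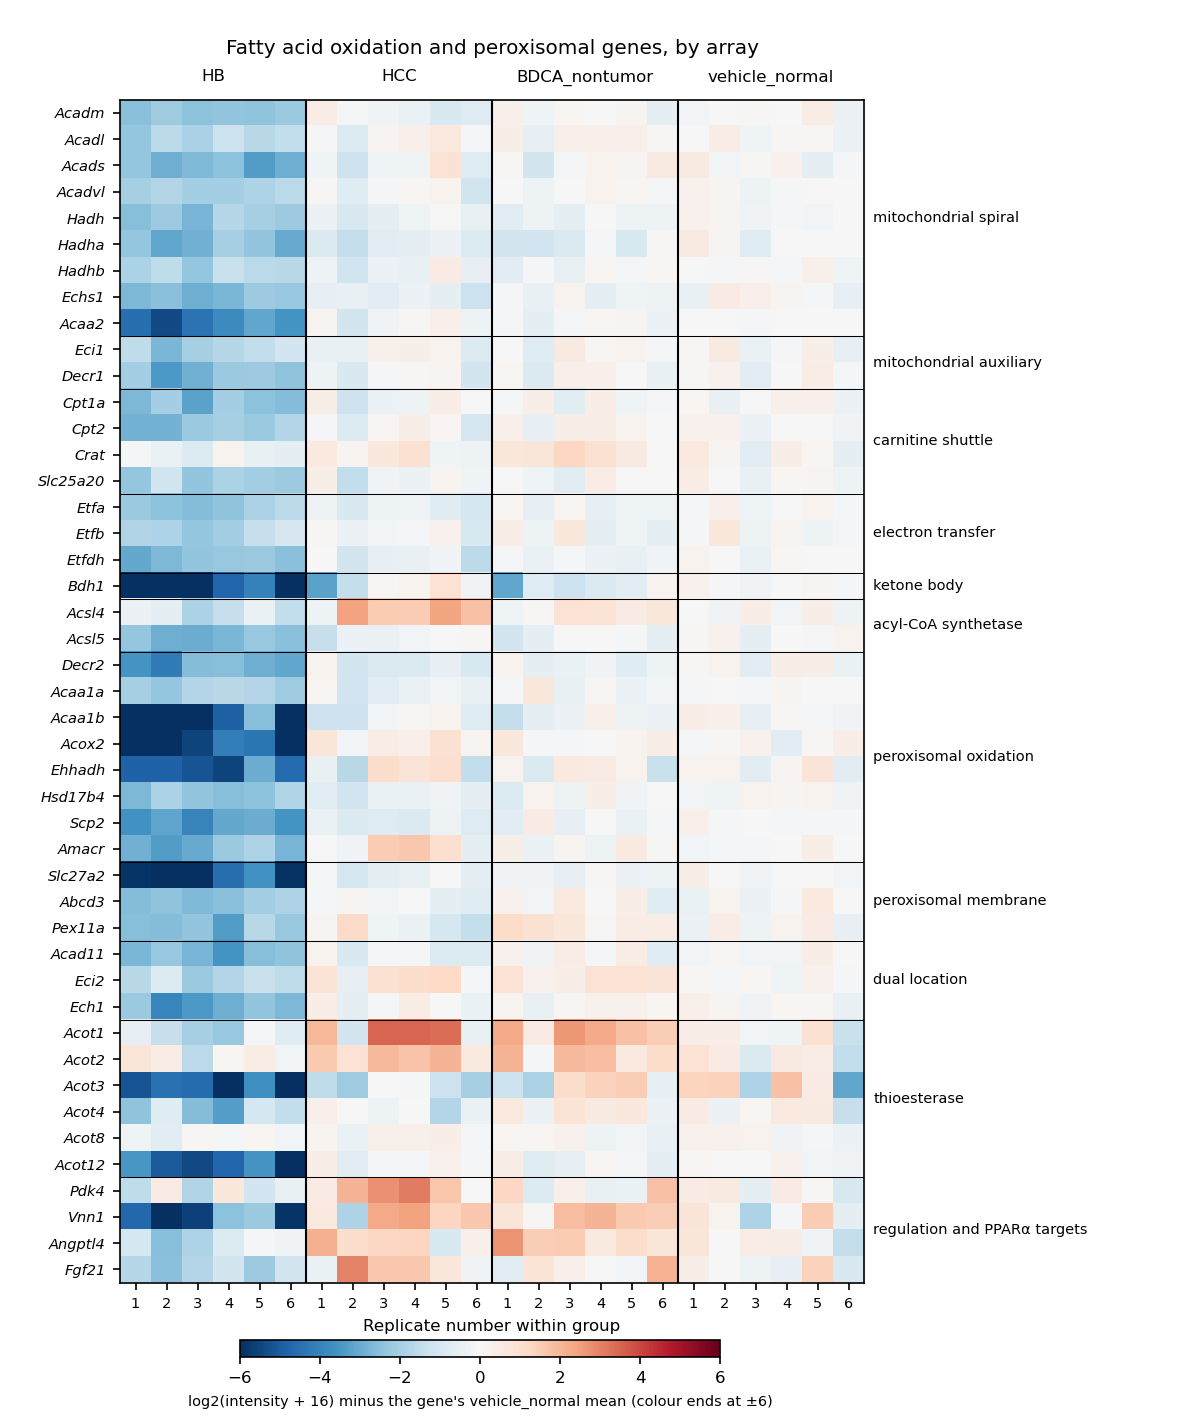
Each row is 1 gene and each column 1 array; colour is log2(intensity + 16) minus the gene's mean in vehicle_normal, from blue (lower) to red (higher), with the colour scale ending at ±6. The HB block is blue in nearly every row, while Crat, Acot2, Acot8 and Pdk4 stay pale and Acsl4, Acot1, Pdk4 and Vnn1 are red on several HCC arrays.

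The mitochondrial spiral fell as a block. All 9 genes were lower in HB, with differences from -4.15 to -1.73 and a median of -2.35. Acadm, the medium-chain acyl-CoA dehydrogenase, ran from 1053 to 1366 (median 1129) in HB and from 4673 to 8033 (median 6101) in vehicle liver. HCC arrays lay at 3156 to 8284 (median 4796) and non-tumour liver at 4155 to 7471 (median 6258). Every HB array was thus below every other array, and the difference from vehicle liver was -2.35 ± 0.20 (adjusted p = 2.01e-10, limma), 5.09-fold lower.

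The other acyl-CoA dehydrogenases differ in the chain length they take. Acadvl, for very long chains, fell from 10342 to 15052 (median 12490) in vehicle liver to 3003 to 4139 (median 3322) in HB, by -1.88 ± 0.19. Acadl, for long chains, had a median of 819 in HB (500 to 1049) against 2622 in vehicle liver (2061 to 3526), a difference of -1.73 ± 0.22. The short-chain enzyme Acads was at -2.77 ± 0.30. None of the 4 overlapped between HB and vehicle liver.

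Hadha and Hadhb encode the trifunctional protein, which runs the later steps for long chains. Hadha ran from 1110 to 2398 (median 1575) in HB and from 5812 to 14184 (median 9831) in vehicle liver, a difference of -2.62 ± 0.25 (adjusted p = 1.79e-09, limma). In HCC it ran from 3548 to 7508 (median 5924) and in non-tumour liver from 4325 to 10107 (median 5200), and neither was called against vehicle liver (-0.82 ± 0.26, adjusted p = 0.0555, and -0.69 ± 0.25, adjusted p = 0.306). Hadhb differed by -1.73 ± 0.22 in HB, but its 3 probe sets ranged from -1.73 to 0.70.

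For shorter chains, Echs1 hydrates and Hadh oxidises the intermediate, and Acaa2 is the thiolase that releases acetyl-CoA. Acaa2 had the largest fall of the spiral: it ran from 308 to 1563 (median 787) in HB and from 13274 to 14162 (median 13711) in vehicle liver, 17.7-fold lower (-4.15 ± 0.27, adjusted p = 1.82e-12, limma). Its HCC arrays spread from 6387 to 16686 (median 13106). Hadh ran from 3459 to 7248 (median 5286) in HB and from 20712 to 28876 (median 23550) in vehicle liver, a difference of -2.25 ± 0.18. Echs1 was at -2.56 ± 0.21. Acaa2 thus stood apart from the other 8 genes, whose differences ended at -2.77.

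Unsaturated fatty acids need auxiliary enzymes to move or reduce their double bonds. Decr1, the mitochondrial dienoyl-CoA reductase, ran from 465 to 1273 (median 1053) in HB and from 3257 to 7136 (median 5468) in vehicle liver (-2.53 ± 0.27, adjusted p = 1.3e-08, limma). Eci1, the mitochondrial enoyl-CoA isomerase, differed by -1.77 ± 0.26. The related genes with a dual or mixed location, Ech1, Acad11 and Eci2, were lower by -2.94 ± 0.24, -2.73 ± 0.25 and -1.55 ± 0.25. Eci2 was higher on all 6 non-tumour arrays (5457 to 8173) than on any vehicle array (3754 to 5331), but that difference of 0.67 ± 0.25 missed the threshold (adjusted p = 0.322, limma).

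The carnitine shuttle carries long chains across the inner membrane, and 3 of its 4 genes were lower in HB. Cpt1a, the rate-limiting transferase on the outer membrane, ran from 1046 to 2369 (median 1705) in HB, 4115 to 12969 (median 8785) in HCC, 6295 to 13134 (median 9149) in non-tumour liver and 7315 to 12180 (median 10349) in vehicle liver. All HB arrays were below all others (-2.51 ± 0.25, adjusted p = 5.25e-09, limma, against vehicle liver). Cpt2, which rebuilds the acyl-CoA inside, had a median of 606 in HB (399 to 858) and 2960 in vehicle liver (2296 to 3528), a difference of -2.31 ± 0.23, although its other, dimmer probe set read 0.08. Slc25a20, the exchanger between them, ran from 1864 to 4142 (median 2173) in HB and from 7091 to 12979 (median 10086) in vehicle liver, 4.01-fold lower (adjusted p = 2.7e-07, limma), and its dimmer probe set read -0.80.

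Crat, which acts on acetyl and other short acyl groups, was not called. It ran from 407 to 866 (median 542) in HB and from 471 to 1097 (median 811) in vehicle liver (-0.35 ± 0.26, adjusted p = 0.255, limma). Its 3 probe sets disagreed, from -1.07 to 1.88, so no direction is given for the gene.

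Electrons from the acyl-CoA dehydrogenases pass through the electron transfer flavoprotein, made of Etfa and Etfb, to the dehydrogenase Etfdh and on to the respiratory chain. All 3 were lower in HB, by -2.21 ± 0.18, -1.75 ± 0.25 and -2.53 ± 0.21. Etfdh ran from 781 to 1440 (median 1227) in HB, 2290 to 6906 (median 4891) in HCC, 5048 to 6552 (median 5632) in non-tumour liver and 5204 to 7886 (median 6913) in vehicle liver. Etfa was the 1 member called lower in HCC: its arrays lay at 5587 to 9727 (median 8125) against 9568 to 14469 (median 11189) in vehicle liver. With HCC replicates 3 and 4 averaged, every HCC sample was below every vehicle sample (-0.66 ± 0.19, adjusted p = 0.0379, limma), but the call was lost when any of HCC replicates 2, 5 and 6 or vehicle replicates 2, 4, 5 and 6 was left out, and under quantile normalization or median centring.

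Bdh1 interconverts the ketone bodies acetoacetate and β-hydroxybutyrate and gave the second largest fall. It ran from 11.2 to 348 (median 40.5) in HB and from 5162 to 7148 (median 5775) in vehicle liver, 79.6-fold lower (-6.32 ± 0.63, adjusted p = 4.11e-09, limma). On 4 of the HB arrays it was under 66.3, the intensity used as the filter on low values. In HCC, replicates 1 and 2 stood at 629 and 2235, below the lowest vehicle array, and the others at 5224 to 11080. In non-tumour liver, replicate 1 stood at 668, replicates 2 to 5 at 2478 to 3703 and replicate 6 at 7025. All but replicate 6 of the non-tumour arrays were thus below the lowest vehicle array. Neither group was called against vehicle liver (-0.76 ± 0.66 in HCC and -1.09 ± 0.63 in non-tumour liver). The other measured ketone body genes of the pathway list split. Bdh2, a related dehydrogenase, and the transporter Slc16a1 fell by -3.13 ± 0.48 and -2.45 ± 0.32. Oxct1, the enzyme with which tissues other than liver use ketone bodies, rose from 215 to 490 (median 325) in vehicle liver to 722 to 4628 (median 2779) in HB, by 2.82 ± 0.42 (adjusted p = 2.67e-06, limma), and lay at 122 to 594 in HCC.

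The acyl-CoA synthetases gave the 1 member with calls in opposite directions in the 2 tumours. Acsl4, which prefers arachidonic acid, ran from 328 to 969 (median 649) in HB, 1002 to 6752 (median 3949) in HCC, 1046 to 2325 (median 1877) in non-tumour liver and 1006 to 1627 (median 1170) in vehicle liver. In HCC, 5 of 6 arrays lay at 3572 or more and replicate 1 at 1002, so that the groups overlapped (1.55 ± 0.37, adjusted p = 0.0115, limma), and the call was lost under median centring. In HB all arrays were just below all vehicle arrays (-1.01 ± 0.36, adjusted p = 0.017, limma). That call was lost without HB replicate 3 and with the most variable probe set, and its 3 probe sets ranged from -1.23 to -0.50. Set directly against HCC, HB was 5.90-fold lower (-2.56 ± 0.37, adjusted p = 3.07e-06, limma). Acsl5, a synthetase of liver and intestine, was lower in HB by -2.62 ± 0.23 and was not called in HCC (-0.40 ± 0.24, adjusted p = 0.345, limma).

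**Figure D2:**
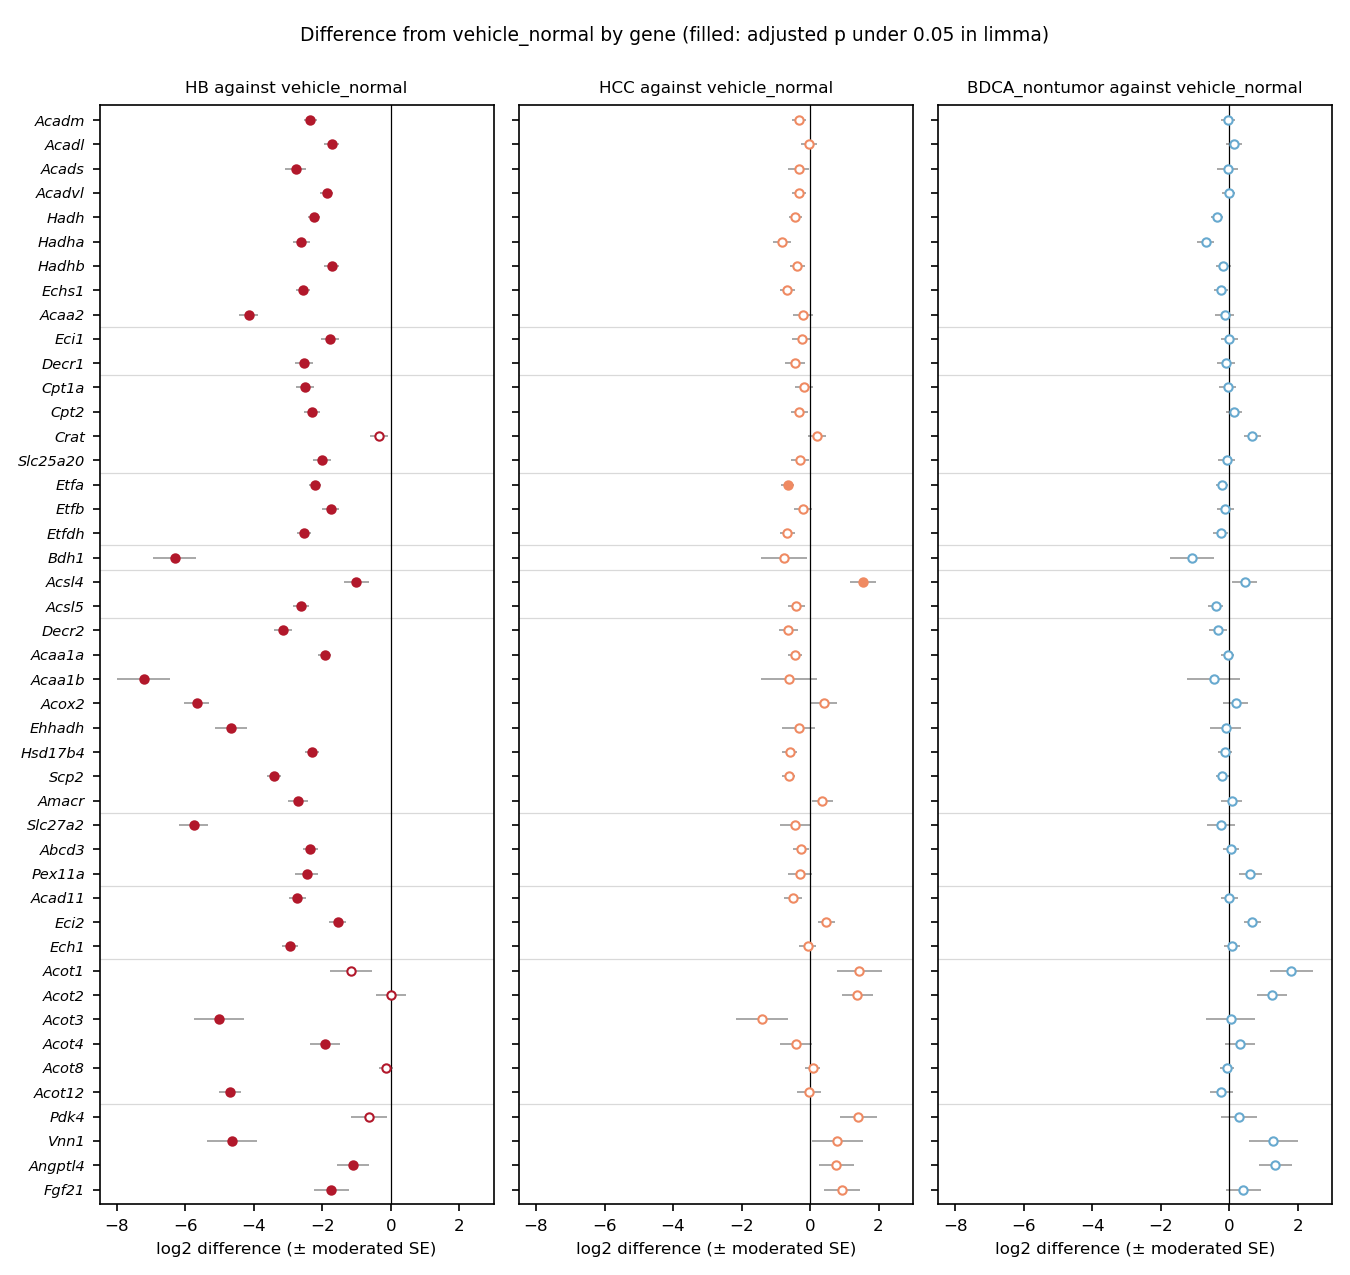
Points give the log2 difference from vehicle_normal for each of 45 genes with its moderated standard error as a bar, for HB (left), HCC (middle) and BDCA_nontumor (right), grouped by role; filled points have an adjusted p under 0.05. HB holds 40 filled points, all left of 0, HCC holds 2 (Etfa and Acsl4) and BDCA_nontumor none.

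Peroxisomal oxidation held the largest fall, that of Acaa1b. All 8 of its genes were lower in HB, with a median of -3.28 and a range of -7.22 to -1.93. Acaa1b, a peroxisomal thiolase, ran from 15.6 to 4214 (median 59.2) in HB, 10664 to 28922 (median 18745) in HCC, 9276 to 30752 (median 19837) in non-tumour liver and 17712 to 32829 (median 25553) in vehicle liver. HB replicates 4 and 5, at 829 and 4214, were far above the other 4 HB arrays at 15.6 to 82.4, yet all 6 were below the arrays of the other groups. The difference from vehicle liver was -7.22 ± 0.77 (adjusted p = 1.35e-08, limma), 149-fold lower, and without these 2 arrays it was -8.96. The near-identical thiolase Acaa1a fell less, from 9554 to 11216 (median 10022) in vehicle liver to 1986 to 3233 (median 2747) in HB (-1.93 ± 0.19). Its probe set is of a type that can bind similar transcripts, so the split between the 2 thiolases is uncertain.

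Acox2 starts the shortening of branched chains and bile acid precursors. It ran from 17.3 to 240 (median 61.4) in HB and from 2785 to 5860 (median 4711) in vehicle liver, 50.8-fold lower (-5.67 ± 0.36, adjusted p = 1.22e-12, limma), and lay at 4006 to 8432 in HCC and 4117 to 6946 in non-tumour liver. Ehhadh, the bifunctional enzyme of the straight-chain route, ran from 46.3 to 363 (median 87.1) in HB and from 1819 to 5021 (median 3363) in vehicle liver (-4.68 ± 0.46). The 2 groups were far apart for both genes. Within HCC, Ehhadh split into 3 arrays at 926 to 2192 and 3 at 5003 to 6113.

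Hsd17b4, the bifunctional enzyme for branched and very long chains, fell less, from 6347 to 8711 (median 7603) in vehicle liver to 1132 to 2114 (median 1388) in HB (-2.31 ± 0.20). Scp2, a sterol carrier and thiolase for branched chains, ran from 1551 to 3258 (median 2469) in HB and from 23792 to 31196 (median 24439) in vehicle liver (-3.41 ± 0.19, adjusted p = 1.16e-13, limma), the smallest p of the 45 genes. Its HCC arrays, at 13817 to 20868 (median 15116), were all below the vehicle arrays too, but that difference of -0.63 ± 0.20 did not pass the test (adjusted p = 0.057, limma). Decr2, the peroxisomal dienoyl-CoA reductase, was at -3.15 ± 0.27 in HB.

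Amacr, a racemase that prepares branched chains and bile acid precursors, ran from 342 to 998 (median 496) in HB and from 3300 to 4802 (median 3519) in vehicle liver (-2.70 ± 0.30). Its HCC arrays spread from 2456 to 11486 (median 5536), with the near duplicate replicates 3 and 4 at 10450 and 11486 and replicate 5 at 7459. The HCC difference of 0.35 ± 0.31 was not called (adjusted p = 0.549, limma).

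Among the peroxisomal membrane genes, Slc27a2, which activates very long chains and takes up fatty acids, fell most. It ran from 74.9 to 1675 (median 333) in HB, 10041 to 21585 (median 14789) in HCC, 15070 to 22285 (median 17599) in non-tumour liver and 17906 to 26631 (median 20810) in vehicle liver, 54.1-fold lower in HB (-5.76 ± 0.42, adjusted p = 1.3e-11, limma). Abcd3, a transporter of branched acyl-CoA, ran from 1073 to 1857 (median 1221) in HB and from 5104 to 10109 (median 6738) in vehicle liver (-2.35 ± 0.22), although its other, dimmer probe set read -0.08. Pex11a, which promotes the division of peroxisomes, ran from 120 to 423 (median 238) in HB and from 954 to 1928 (median 1354) in vehicle liver (-2.46 ± 0.34). For all 3 the HB arrays lay below every other array.

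Mitochondrial and peroxisomal genes can be set against each other within each sample. The 19 mitochondrial genes had a median difference of -2.31 in HB against vehicle liver, with 18 lower, and the 14 peroxisomal genes a median of -2.93, with 13 lower. The per-sample median of the mitochondrial genes minus that of the peroxisomal genes, each relative to vehicle liver, was 0.72 ± 0.31 (SD, n = 6) in HB on the log2 scale. It was 0.03 ± 0.20 (SD, n = 5) in HCC, -0.03 ± 0.15 (SD, n = 6) in non-tumour liver and -0.03 ± 0.10 (SD, n = 6) in vehicle liver. HB samples ran from 0.35 to 1.15 and vehicle samples from -0.15 to 0.13, so peroxisomal genes were the lower of the 2 lists in every HB sample. HCC sample 5, at 0.36, lay just above the lowest HB sample. No p is given, since the lists were chosen with earlier results known.

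**Figure D3:**
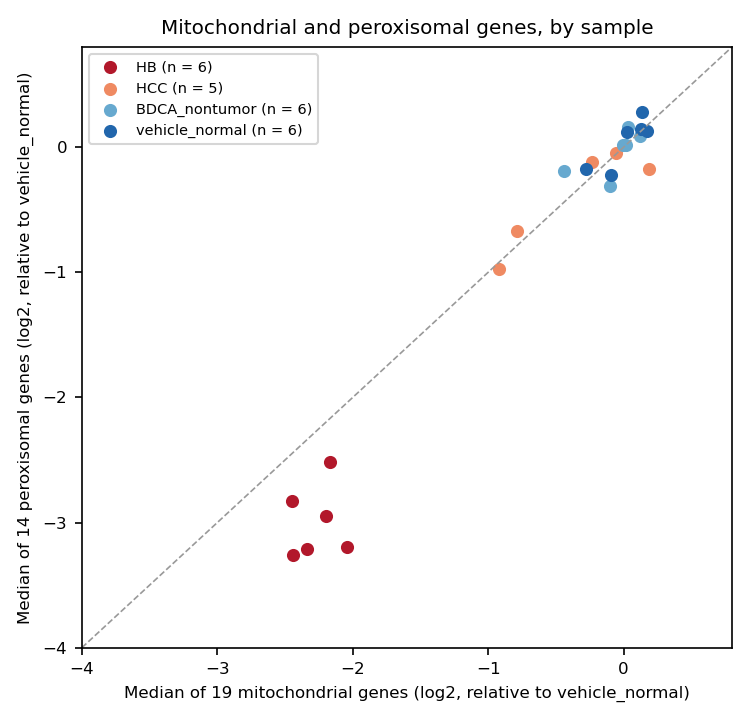
Each point is 1 sample: the median of 19 mitochondrial genes (horizontal) against the median of 14 peroxisomal genes (vertical), both in log2 relative to the vehicle_normal mean, with equality as a dashed line. The 6 HB samples lie at the lower left and below the line; 2 of the 5 HCC samples lie between HB and the cluster of the other samples, on both axes.

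The HCC samples were not alike. Samples 2 and 6 had mitochondrial medians of -0.92 and -0.79 and peroxisomal medians of -0.97 and -0.67, while the other 3 lay between -0.24 and 0.19 on both lists. These values are a description of single samples, and no grouping of them was tested.

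The thioesterases, which cleave acyl-CoA back to free fatty acid, divided. Acot12, an acetyl-CoA hydrolase of liver, ran from 50.5 to 371 (median 129) in HB, 2713 to 5577 (median 4031) in HCC, 2541 to 5611 (median 3537) in non-tumour liver and 3667 to 5070 (median 4321) in vehicle liver (-4.70 ± 0.33, adjusted p = 5.06e-12, limma, 26.0-fold lower in HB), although the call was lost with its most variable probe set. Acot3, a peroxisomal enzyme for long chains, ran from 1.48 to 79.7 (median 26.6) in HB and from 130 to 4175 (median 2446) in vehicle liver (-5.03 ± 0.73, adjusted p = 1.77e-06, limma). Vehicle replicates 3 and 6 were low, at 324 and 130, against 1749 to 4175 for the other 4, which were also the 4 vehicle arrays with an intensity over 1000 for Xist. Without the arrays over that Xist level the Acot3 difference shrank to -2.54 (adjusted p = 0.0174, limma). Acot4 was lower by -1.93 ± 0.44, with overlapping groups.

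Acot1, Acot2 and Acot8 were not called in HB. Cytosolic Acot1 ran from 79.6 to 412 (median 214) in HB and from 170 to 869 (median 499) in vehicle liver (-1.16 ± 0.63, adjusted p = 0.11, limma). In HCC it split, with replicates 2 and 6 at 192 and 322 and the others at 1833 to 5226, and in non-tumour liver it ran from 631 to 2814 (median 1884). Mitochondrial Acot2, a near copy of Acot1 whose signal may be shared, differed by 1.38 ± 0.46 in HCC without passing the test (adjusted p = 0.0641, limma). Peroxisomal Acot8 stayed between 360 and 758 on all 24 arrays (-0.15 ± 0.21 in HB against vehicle liver, adjusted p = 0.536, limma).

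**Figure D4:**
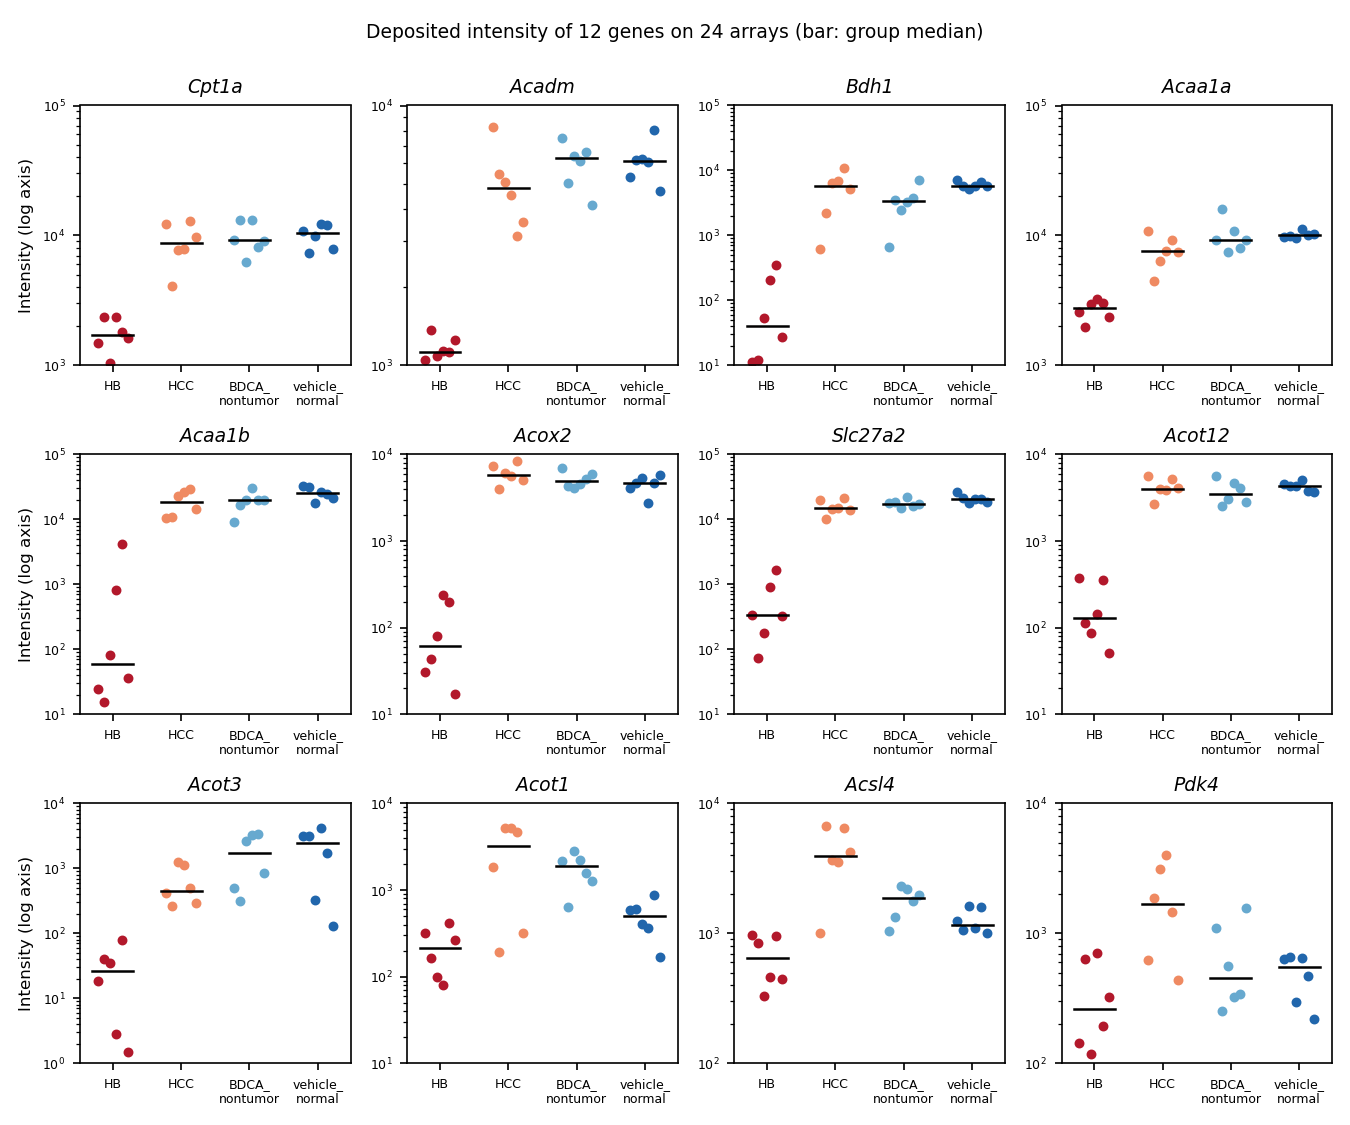
Deposited intensity of 12 genes on each of the 24 arrays, on log axes that span whole decades and differ between panels; the bar is the group median. HB arrays are lowest for Cpt1a, Acadm, Bdh1, Acaa1a, Acaa1b, Acox2, Slc27a2, Acot12 and Acot3, whereas Acot1 and Pdk4 overlap and Acsl4 is high on 5 of 6 HCC arrays.

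The 4 regulated PPARα targets and hormones varied more within groups. Vnn1, a pantetheinase of liver, ran from 2.59 to 469 (median 51.6) in HB, 624 to 12033 (median 6250) in HCC, 2354 to 9261 (median 6547) in non-tumour liver and 622 to 6558 (median 2384) in vehicle liver (-4.64 ± 0.72, adjusted p = 4.8e-06, limma, in HB). Fgf21, a fasting hormone of liver, ran from 12.4 to 59.9 in HB and from 69.9 to 404 in vehicle liver (-1.74 ± 0.51, adjusted p = 0.00491, limma), with all 6 HB arrays under 66.3. Angptl4, a secreted inhibitor of lipoprotein lipase, was at 53.4 to 360 in HB and 140 to 662 in vehicle liver, overlapping (-1.10 ± 0.48, adjusted p = 0.0482, limma), and its call was lost when any of HB replicates 1 to 4 or vehicle replicates 1 to 5 was left out. Pdk4, the kinase that spares pyruvate while fat is burned, was not called in HB against vehicle liver (-0.64 ± 0.52, adjusted p = 0.293, limma). It ran from 118 to 712 (median 260) in HB, 436 to 4016 (median 1670) in HCC and 220 to 653 (median 554) in vehicle liver, and HB was lower than HCC (-2.05 ± 0.54, adjusted p = 0.00271, limma). When the 5 arrays with Xist over 1000 were left out, Acsl4, Angptl4, Fgf21 and Acot4 lost their call in HB against vehicle liver, and Acsl4 and Etfa theirs in HCC. Acot2 gained a call in HCC against vehicle liver in that setting.

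Set against HCC, 43 of 45 genes were lower in HB and 0 higher, at a background of 21.7% lower, with a median of -2.09 and a range of -6.60 to -0.23. The exceptions were Crat and Acot8. In 37 of the 43 the groups did not overlap, at a background of 11.9%. Against non-tumour liver, 43 were lower in HB, at a background of 22.4%, with a median of -2.33, and the exceptions were Pdk4 and Acot8. Crat is among those 43 by its brightest probe set, but its probe sets again disagreed, from -1.37 to 1.51. The groups did not overlap in 41 of those, at a background of 13.4%. These comparisons share the HB arrays with the first and are not independent of it. Acaa1b led both, at -6.60 ± 0.81 against HCC and -6.77 ± 0.77 against non-tumour liver, followed by Acox2 against HCC (-6.07 ± 0.38) and Vnn1 against non-tumour liver (-5.93 ± 0.72).

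Of the 45 genes, 0 passed the test in non-tumour liver against vehicle liver, at a background of 0.0994% of genes called, and 0 in HCC against non-tumour liver, at 1.83%. At an unadjusted p under 0.05, limma gave 6 genes in the first (Hadha, Eci2, Crat, Acot2, Angptl4 and Acot1), where 10.3% of all genes passed that level, and 6 in the second (Pex11a, Hsd17b4, Etfa, Scp2, Acsl4 and Pdk4), where 13.4% did. Both counts are near these shares. In non-tumour liver against vehicle liver the median over the 45 genes was -0.04 with 25 below 0. Without the arrays with Xist over 1000 it was 0.18 with 16 below 0. In HCC against vehicle liver, 13 of 45 genes had an unadjusted p under 0.05, 9 with lower and 4 with higher values, where 21.8% of all genes passed that level. The median over the 45 genes was -0.31 with 33 below 0, against a median of 0.08 over all genes. That median was -0.18 without HCC replicate 2 and likewise -0.18 without replicate 6, and -0.02 with 24 below 0 without the arrays with Xist over 1000. In HCC 0 of 8 hepatocyte markers were called, although all 8 differences were below 0 with a median of -0.41. Macrophage markers had a median of -1.33 with 8 of 8 below 0 and 1 called lower. Of the endothelial markers 1 of 8 was called lower, but only 3 were below 0 and the median was 0.44. Stellate cell and fibroblast markers were alike, with 1 of 8 called lower, 3 below 0 and a median of 0.09. Of the lymphocyte markers 1 of 5 was called lower, with 4 below 0 and a median of -0.43. The 2 measured of 6 listed adipocyte markers summed to 6867 to 18853 against 2226 to 3417 in vehicle liver, with Fabp4 called higher (1.91 ± 0.44). The other, Cidec, lay at 113 to 1100 in HCC, so most of that sum was Fabp4. The part of these markers in the result was not tested.

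The falls extended to the rest of the pathway. For this and the pathway lists below, the background in HB was 23.1% lower and 37.4% higher over all genes tested. In HCC it was 2.88% lower and 4.44% higher. Among other peroxisomal enzymes, 19 of 23 measured genes were lower in HB and 2 higher, with a median of -2.85. Pipox, which oxidises pipecolic acid and sarcosine, and Agxt, which detoxifies glyoxylate, ran from 8.3 to 244 and from 4.9 to 152 in HB, and from 9531 to 14221 and from 5725 to 11143 in vehicle liver (-7.42 ± 0.40 and -7.27 ± 0.43). Nudt7, a coenzyme A hydrolase, and Crot, the carnitine octanoyltransferase, were lower in HB by -4.70 ± 0.29 and -4.06 ± 0.24 and lower in HCC too, by -2.49 ± 0.30 and -1.45 ± 0.26. In HCC, 7 of the 23 were lower and 0 higher. The 2 genes higher in HB were Acot6 (1.40 ± 0.35) and Agps (1.36 ± 0.21), the latter an enzyme of ether lipid synthesis. They are named after their values were seen.

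Peroxins, which build the organelle, moved less. In HB 8 of 12 measured were lower, with a median of -0.92. Pex16 and Pex19, which insert membrane proteins, were at -2.87 ± 0.30 and -1.33 ± 0.17, and Pex7 and Pex6, parts of the import machinery, at -2.24 ± 0.22 and -1.51 ± 0.24. In HCC 0 of 12 were called.

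Other mitochondrial oxidation genes were lower in 15 of 19 and higher in 2, with a median of -1.59. The medium-chain synthetases Acsm1 and Acsm5 fell furthest, by -7.25 ± 0.41 and -5.90 ± 0.39, and Acat1, the acetoacetyl-CoA thiolase, and Mlycd, the malonyl-CoA decarboxylase, by -2.45 ± 0.22 and -2.53 ± 0.25. Cpt1c, the isoform known from brain, was higher: it ran from 1066 to 2005 (median 1440) in HB against 7.5 to 133 (median 78.8) in vehicle liver and 44.4 to 567 in HCC (4.24 ± 0.45, adjusted p = 1.39e-08, limma), opposite in direction to Cpt1a. Acot9, a mitochondrial thioesterase, was the other (1.77 ± 0.52). Both are named after their values were seen. In HCC 4 of 19 were lower.

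Regulators of the pathway were lower in 12 of 13 in HB, with a median of -2.86, and called in 0 of 13 in HCC. Ppara itself ran from 41.0 to 469 (median 204) in HB, 3074 to 4552 (median 3565) in HCC, 3976 to 6331 (median 4979) in non-tumour liver and 4448 to 7794 (median 6095) in vehicle liver (-5.00 ± 0.35, adjusted p = 5.39e-12, limma). Creb3l3, a fasting-induced factor, Nr1h4, the bile acid receptor, and Rxra, the partner of PPARα, fell by -5.87 ± 0.43, -3.73 ± 0.31 and -2.26 ± 0.20. The related receptor Ppard, named after its values were seen, was higher in HB (1.36 ± 0.51, adjusted p = 0.0232, limma). Other PPARα targets were lower in 15 of 18 with a median of -3.43, among them the fatty acid carriers Fabp2 (-7.19 ± 0.49) and Cd36 (-5.48 ± 0.37), Pctp (-4.40 ± 0.34) and the lipase Mgll (-3.49 ± 0.26). In HCC 1 of the 18 was higher, Cyp4a31 (3.15 ± 0.64), a fatty acid hydroxylase, and 1 lower, Mgll (-0.94 ± 0.27).

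PPARα with RXR binds a direct repeat: AGGTCA, any 1 base, and AGGTCA again. Because most members were lower along with Ppara, the 250 bases before each start site were searched for it on both strands in RefSeq promoters (GRCm38.p6), which held 39 of the 46 genes. With no mismatch 0 of 39 had it, against 0.0407% of 27025 genes. With up to 2 mismatches 4 of 39 (10.3%) had it, against 3.72% of genes. A match is a description of letters and not a binding site. The 4 matches are printed 5′ to 3′ on the strand of the gene with up to 8 flanking bases on each side, the matched letters in capitals, because they are the members closest to the repeat.
Acot12: taggacccTGACCTCTCACCTcctaagca
Acot4: ccgaagcaTGACCTTTGGCCG
Echs1: gcccgctcAGGTCACGGGTCCacccctta
Etfa: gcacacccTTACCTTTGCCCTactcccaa
They lie at chr13:91741403-91741431 (plus strand) for Acot12, the match with 1 mismatch, and at chr12:84038358-84038378 (plus strand) for Acot4, chr7:140116484-140116512 (minus strand) for Echs1 and chr9:55512300-55512328 (minus strand) for Etfa, each with 2. All 4 are upstream of the annotated start, the Acot12 match at -110 to -98 and the Echs1 match at -83 to -71. In HB against vehicle liver these genes differed by -4.70, -1.93, -2.56 and -2.21, within the range of the members without such a match.

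Signs of hepatocyte content moved with some of these genes inside HB, but not with others. HB replicates 4 and 5 had albumin intensities of 28758 and 15782, against 229 to 1630 in the other 4. Both were above the other 4 HB arrays in 10 of 45 genes: Hadh, Acaa1a, Acaa1b, Acox2, Scp2, Amacr, Etfdh, Bdh1, Slc27a2 and Vnn1. For Slc27a2 they stood at 904 and 1675 against 74.9 to 344, and for Bdh1 at 206 and 348 against 11.2 to 53.8. For most others they did not stand out, as for Acadm at 1132 and 1126 within 1053 to 1366. Replicate 4, with the most albumin, was the lowest HB array for Ehhadh (46.3), Acad11 (199), Pex11a (120), Acot1 (79.6) and Acot4 (5.42). The share of all genes tested in which replicates 4 and 5 exceed the other HB arrays was not counted. The 10 genes and the counts of highest arrays are therefore a description only. Without replicates 4 and 5, all 40 calls in HB against vehicle liver were kept and the median over the 45 genes was -2.44.

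Markers of other cell types moved as well. Macrophage markers were lower in 8 of 8 in HB (summed intensity 723 to 1857 against 8711 to 35647 in vehicle liver) and endothelial markers in 5 of 8 (587 to 3708 against 9640 to 12094). The endothelial markers Cdh5 and Tie1 went the other way without a call, with medians of 1636 and 202 in HB against 1152 and 110. Stellate cell and fibroblast markers were lower in 5 of 8 (2259 to 13306 against 13566 to 17795) and lymphocyte markers in 4 of 5 measured. Biliary markers were higher in 4 of 4 measured (1031 to 3883 against 105 to 564), and 1 of 2 muscle markers was higher, Tnnt2 at 7.67 ± 0.62. The log2 ratio of 3′ to 5′ Gapdh control signal was 1.37 ± 0.23 (SD, n = 6) in HB and 1.92 ± 0.19 (SD, n = 6) in vehicle liver, and the same ratio for Actb was 0.25 ± 0.10 (SD, n = 6) and 0.14 ± 0.10 (SD, n = 6). The part of these differences in the results was not tested.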

How the data were processed

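Total RNA of 24 mouse liver samples was amplified, labelled with biotin and hybridised to 1-colour arrays. The deposited intensity values were made by the authors with MAS5, per the submitters' processing notes; its version is not given in the sources used here, and probe-level files were not used. Each array had a 2% trimmed mean of 500. Of 45101 probe sets, 34945 had 1 gene symbol in the platform annotation, 932 several and 9160 none, and those with several were not used. The analysis scale was log2(intensity + 16). The filter on low values asked for at least 6 arrays above 66.3, the 40th percentile of all values; all 45 members with a probe set passed. Because a member could pass through a group where it is high, counts describe members measured. The brightest kept probe set stood for a gene; for the 45 members, 32 of these were unique, 6 shared, 5 cross-hybridising and 2 gene-family types by name. HCC replicates 3 and 4 were averaged (scaled median absolute deviation of log2 differences 0.195, against 0.372 to 0.803 in the other within-group pairs).

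A linear model over all 4 groups was fitted in limma 3.58.1 (R 4.3.3) with an intensity trend, and two-sided p-values were corrected over 14086 genes (Benjamini-Hochberg). Precision is limited by the number of arrays. On simulated data for HB against vehicle liver with 14086 genes, 26% of changes of 1 and 83% of changes of 2 (log2) were recovered. The simulation changed 200 genes, whereas 8527 were called in the real comparison. The adjusted threshold therefore differs, and these shares do not carry over to the real comparison. The members, pathway lists and markers were chosen with earlier results of these data known. Per-array values are given for members listed by name with the design, which cover each step, and for the 2 largest called differences a direction; of each pathway list, up to 4 genes with the smallest adjusted p in HB against vehicle liver are named. Alternatives covered pseudocount, scaling, filter, probe set, variance model, array weights, samples in the fit, replicate block and arrays left out.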

Additional observations from a re-analysis of the deposited data

Results flagged for a closer look

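In 7 of 180 combinations of gene and group, 1 array lay far from the other 5; chance alone gives about 1 in 20. Non-tumour replicate 2 was low for Acadl (1842, others 2697 to 3285) and for Ech1 (6253, others 9056 to 10385). HCC replicate 6 was low for Echs1 (943, others 1506 to 1807). HB replicate 5 was high for Ehhadh (363, others 46.3 to 103). In vehicle liver, replicate 1 was high for Scp2 (31196, others 23792 to 26094), replicate 5 high for Amacr (4802, others 3300 to 3776) and replicate 3 low for Etfdh (5204, others 6795 to 7886).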

How the results depend on the processing

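In HB against vehicle liver, 35 of the 40 calls were kept in all 26 alternatives; Acot12, Acsl4, Angptl4, Fgf21 and Acot4 were each lost in at least 1, and Acot1, Crat, Pdk4 and Acot8 were called in at least 1. The counts ran from 38 to 40 with each array left out, and from 43 to 43 against HCC and 42 to 43 against non-tumour liver. Scaling moved the median of all genes in HB against vehicle liver from 0.34 to -0.00 (quantile normalization) or -0.40 (median centring), and the percentage higher among called genes from 61.8% to 49.3% or 30.9%; the median over the members was -2.28 or -3.09, with all 45 below 0 in both. For HB against HCC that percentage was 57.4%, 47.0% and 29.2%, and for HCC against vehicle liver 60.6%, 52.6% and 37.3%. The 2 members called in HCC against vehicle liver became 1 under quantile normalization, with no filter, with no intensity trend and without the arrays with Xist signal, 0 under median centring, 6 with array weights, 4 with only the 2 groups fitted and 7 with 24 separate arrays; leaving out 1 array gave 1 to 4, and the cause was not tested. In non-tumour liver against vehicle liver, fitting only the 2 groups gave 1 (Acot1), and leaving out 1 array 0 to 0. In HCC against non-tumour liver, leaving out HCC replicates 1 and 5 gave 1 (Acsl4) and 1 array 0 to 1. The mitochondrial minus peroxisomal value in HB kept its sign, from 0.67 to 0.83 without single arrays. With the most variable probe set, Crat reversed to 1.88 (adjusted p = 2.39e-04, limma) against vehicle liver, 1.05 (0.0377) against HCC and 1.51 (0.00229) against non-tumour liver, through another, dimmer probe set. Replicate numbers did not pair the samples (correlations of same-numbered deviations -0.118 to 0.0993, except 0.504 for replicate 1 of HCC and non-tumour liver); the replicate block with 24 separate arrays gave 4 members in HCC against vehicle liver and changed no call in HB against vehicle liver. Values under 66.3 limit the size of the largest falls: Acaa1b read -7.61 with a pseudocount of 1 and -6.54 with 64, and Acot3 -6.17 and -3.90.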
